A study of Mus musculus with 15 samples.

Results

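The genes described here were 10 contractile and growth-control genes that are widely used as readouts of the transcription factor SRF and of the co-activator YAP: Acta2, Tagln, Cnn1, Myl9, Actg2, Tpm1, Tpm2, Ctgf, Cyr61 and Ankrd1. They were chosen by name among the 18804 genes of the deposited count table, and all 10 passed the filter on low counts that left 14293 genes for testing. The libraries held RNA of white adipocytes in culture, which had been differentiated from mesenchymal stem cells taken from the ears of C57BL/6J mice with methylisobutylxanthine, dexamethasone, insulin and troglitazone, in medium with serum. Cells of the day 0 group stayed at 37°C, those of the day 1 group were shifted to 31°C on day 15 of differentiation and those of the day 12 group on day 4, with a common harvest on day 16. Each group had 5 libraries. Every group had the same strain, medium and age of culture at harvest, so the groups differed in the days spent at 31°C and in the stage of differentiation at which the cooler temperature began, which cannot be told apart. It is not given whether the libraries within a group were of separate animals or of dishes of 1 cell preparation (in the sources used here), so p-values measure the spread between these libraries, which may be technical.

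SRF binds the CArG box in the promoters of actin, myosin and other cytoskeletal genes. Its co-activators of the MRTF family are held in the cytoplasm by monomeric actin and enter the nucleus when actin polymerises, so that the state of the cytoskeleton is read out as transcription. YAP and its paralog TAZ are held back by the kinases of the Hippo pathway, and in the nucleus they act through the TEAD factors, which bind DNA at the word GGAATG. Progenitors of adipocytes are rich in actin stress fibres, which are taken apart as the cells round up and fill with lipid, and both pathways are known to oppose adipogenesis.

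The 10 genes fall into 3 groups by what they encode. Acta2 (smooth muscle alpha-actin, GRCm38 chr19:34241090-34255590), Actg2 (smooth muscle gamma-actin, chr6:83512905-83536265), Myl9 (a regulatory light chain of myosin, chr2:156775420-156781658), Cnn1 (calponin, which binds actin and restrains the myosin ATPase, chr9:22099216-22109630) and Tagln (transgelin or SM22, which cross-links actin, chr9:45929619-45936058) are classical contractile genes of smooth muscle and myofibroblasts. Tpm1 (chr9:67022590-67049406) and Tpm2 (chr4:43514711-43523765) encode tropomyosins, which coat actin filaments. Ctgf (chr10:24595442-24598683) and Cyr61 (chr3:145646976-145649981) encode secreted matricellular proteins of the CCN family, and Ankrd1 (chr19:36111961-36120099) encodes an ankyrin repeat protein of muscle and nucleus. These last 3 genes are the usual reporters of YAP activity.

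RefSeq promoter sequences (GRCm38.p6) were found for 7 of the 10 genes (not for Tagln, Actg2 and Ctgf), and the 250 bases before the annotated start were searched on both strands. The sequences below are shown because they hold the words that SRF and TEAD factors bind. The CArG box, CC and GG around a core of 6 bases that are all A or T, was found before 1 of the 7 genes, Myl9, and in 1.47% of the 32851 promoter windows of the same length. A CArG box with 1 C or G in the core, a search added after the sequences were seen, was found before Acta2 and Myl9 and in 7.24% of windows. The word GGAATG or its reverse complement CATTCC was found before Acta2, Tpm1, Cyr61 and Ankrd1 and in 12.6% of windows. The windows of Cnn1 and Tpm2 held none of these words. Starts are those of RefSeq, and 6 of the 7 windows overlap an exon annotated in GENCODE, the source of the gene coordinates above. The stretches of Acta2, Tpm1 and Ankrd1 below therefore lie within those gene coordinates. In each line the capitals mark the word, and the sequence reads 5′ to 3′ on the gene's own strand.
Myl9 (chr2:156775214-156775419, + strand), with the CArG box 161 bases before the start and the form with 1 G in the core 99 bases before it: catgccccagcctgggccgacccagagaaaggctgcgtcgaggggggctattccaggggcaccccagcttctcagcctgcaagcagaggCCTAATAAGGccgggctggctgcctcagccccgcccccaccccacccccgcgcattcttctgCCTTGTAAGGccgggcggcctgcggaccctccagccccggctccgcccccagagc
Acta2 (chr19:34255438-34255467, − strand), CArG box with 1 C in the core, 84 bases before the start: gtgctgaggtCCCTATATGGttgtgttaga
Acta2 (chr19:34255388-34255417, − strand), CArG box with 1 G in the core, 34 bases before the start: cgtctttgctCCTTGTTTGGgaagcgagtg
Acta2 (chr19:34255502-34255531, − strand), TEAD word 146 bases before the start: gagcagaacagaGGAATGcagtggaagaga
Tpm1 (chr9:67049252-67049281, − strand), TEAD word 56 bases before the start: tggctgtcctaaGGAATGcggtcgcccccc
Cyr61 (chr3:145649986-145650235, − strand), TEAD word 103 bases before the start: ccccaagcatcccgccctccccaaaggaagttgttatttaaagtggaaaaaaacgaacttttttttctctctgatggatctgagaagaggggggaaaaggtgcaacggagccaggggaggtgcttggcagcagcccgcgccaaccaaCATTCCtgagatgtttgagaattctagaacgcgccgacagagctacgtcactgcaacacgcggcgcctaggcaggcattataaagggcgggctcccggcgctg
Ankrd1 (chr19:36120037-36120066, − strand), TEAD word 210 bases before the start: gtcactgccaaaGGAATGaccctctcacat
Ankrd1 (chr19:36119950-36119979, − strand), TEAD word 123 bases before the start: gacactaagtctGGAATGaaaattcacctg
A match is a description of the letters in the window, not of a bound site.

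Total counts per library were 92387376 to 133270973 in the day 0 group, 74430465 to 105322757 in the day 1 group and 64648178 to 91338649 in the day 12 group, and 3 counts, the floor used for a gene at 0, correspond to 0.0238 to 0.0428 CPM (a gene's count relative to the TMM-scaled total of its library). A gene was called where edgeR's quasi-likelihood test gave an adjusted p below 0.05 and the fold change was over 1.5. The cultures carried adipocyte markers, with Adipoq at 1095, 1126 and 464.3 CPM at days 0, 1 and 12 and Fabp4 at 827.8, 1399 and 1617 CPM, together with fibroblast markers such as Col1a1 at 2649, 2106 and 1975 CPM. In such bulk samples, fewer cells of a type and less RNA per cell cannot be told apart. With the libraries scaled by total counts, the median log2 fold change of all genes at day 12 was 0.205 rather than 0.0123, so day 12 values are relative to the bulk of genes.

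Per kilobase of exon, Ctgf was the most abundant of the 10 genes in every group. At day 0, Ctgf was at 343.3 ± 24.1 CPM per kb (SD, n = 5), Cyr61 at 223.0 ± 12.5, Acta2 at 129.9 ± 7.31 and Tagln at 52.46 ± 2.91. Below these came Tpm1 at 36.11 ± 0.912 CPM per kb, Myl9 at 25.79 ± 1.67 and Tpm2 at 17.01 ± 1.22. The other 3 genes were far lower, with Cnn1 at 3.834 ± 0.362, Ankrd1 at 1.045 ± 0.141 and Actg2 at 0.7932 ± 0.15 CPM per kb. The SDs of neighbours in this order did not reach each other at day 0, except that Ankrd1 and Actg2 were within the sum of their SDs. At day 1, Cyr61 at 212.0 ± 8.04 and Acta2 at 188.5 ± 21.5 CPM per kb were within the sum of their SDs, as were Tpm1 at 47.49 ± 1.15 and Myl9 at 42.62 ± 4.63. By day 12, Acta2 at 162.0 ± 16.0 and Cyr61 at 154.8 ± 4.27 CPM per kb were within 1 SD of each other, and Cnn1 at 0.9229 ± 0.208 and Actg2 at 0.675 ± 0.336 were within the sum of their SDs, as were Actg2 and Ankrd1 at 0.2776 ± 0.104, and Tagln at 60.66 ± 5.01 and Tpm1 at 54.77 ± 1.04.

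**Figure D1:**
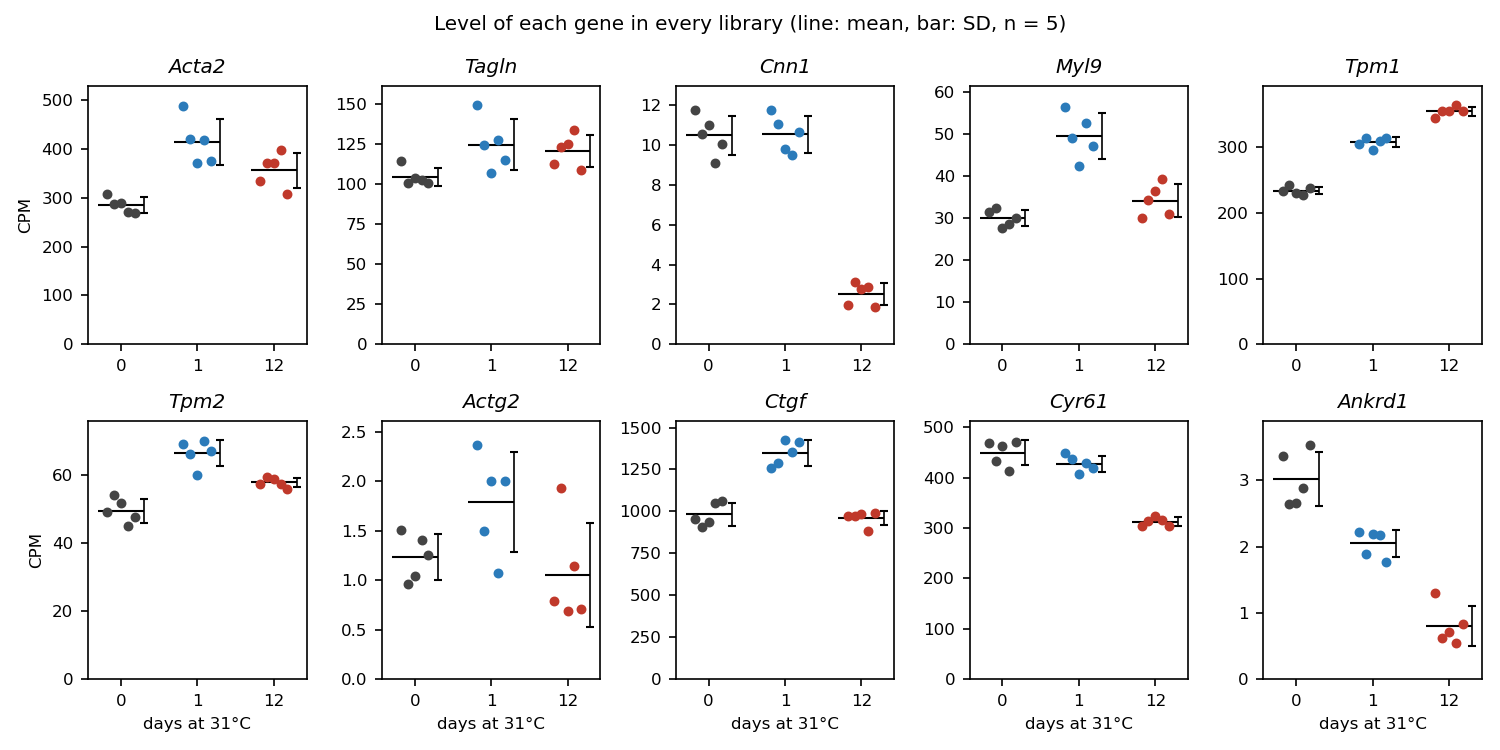
Level of each of the 10 genes in every library, in CPM on a linear axis from 0, against days at 31°C; each point is a library, the line is the mean and the bar the SD (n = 5). Cnn1 kept its level at day 1 and was between 1.86 and 3.12 CPM at day 12, Myl9 and Ctgf were highest at day 1, and Tpm1 was highest at day 12.

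Over the 10 genes, a single day at 31°C went with modestly higher levels of most contractile and tropomyosin genes and of Ctgf, and 12 days with much less Cnn1 and Ankrd1. At day 1, 1 gene was called higher (Myl9) and 0 lower, where 7.71% of all tested genes were called higher and 13.4% lower. At an adjusted p below 0.05 alone there were 7 higher and 1 lower, against 35.3% and 36.2% of all tested genes, and the unadjusted p was also below 0.05 for Cyr61. At day 12, 1 was called higher (Tpm1) and 2 lower (Cnn1 and Ankrd1), against 13% and 16.2% of all tested genes. The background shifted with the scaling, from 1852 genes called higher and 2320 lower to 2982 and 1668 with total counts, while the count of the 10 genes stayed at 1 and 2. By adjusted p alone 5 were higher and 3 lower, against 39.2% and 37.4%. From day 1 to day 12, 0 were called higher and 3 lower (Cnn1, Actg2 and Ankrd1), against 10.6% and 8.53% (1510 and 1219 genes, or 2248 and 843 with total counts). By adjusted p alone, 1 (Tpm1) was higher and 8 lower, against 34.3% and 32.8%. DESeq2 called as many of the 10 genes as edgeR in each direction of each comparison.

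All libraries of day 1 were above all of day 0 for 5 of the 10 genes and below for 1, against 28.6% and 28.8% of all tested genes. The day 12 libraries were all above day 0 for 2 genes and all below for 3, against 33% and 31.7%, and all above day 1 for 1 gene and all below for 6, against 26.5% and 25.9%. The median log2 fold change of the 10 genes was 0.409 at day 1, against -0.00884 for all tested genes. It was 0.077 at day 12, against 0.0123, and -0.471 from day 1 to day 12, against 0.0092. Both comparisons with day 0 share the same control libraries.

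**Figure D2:**
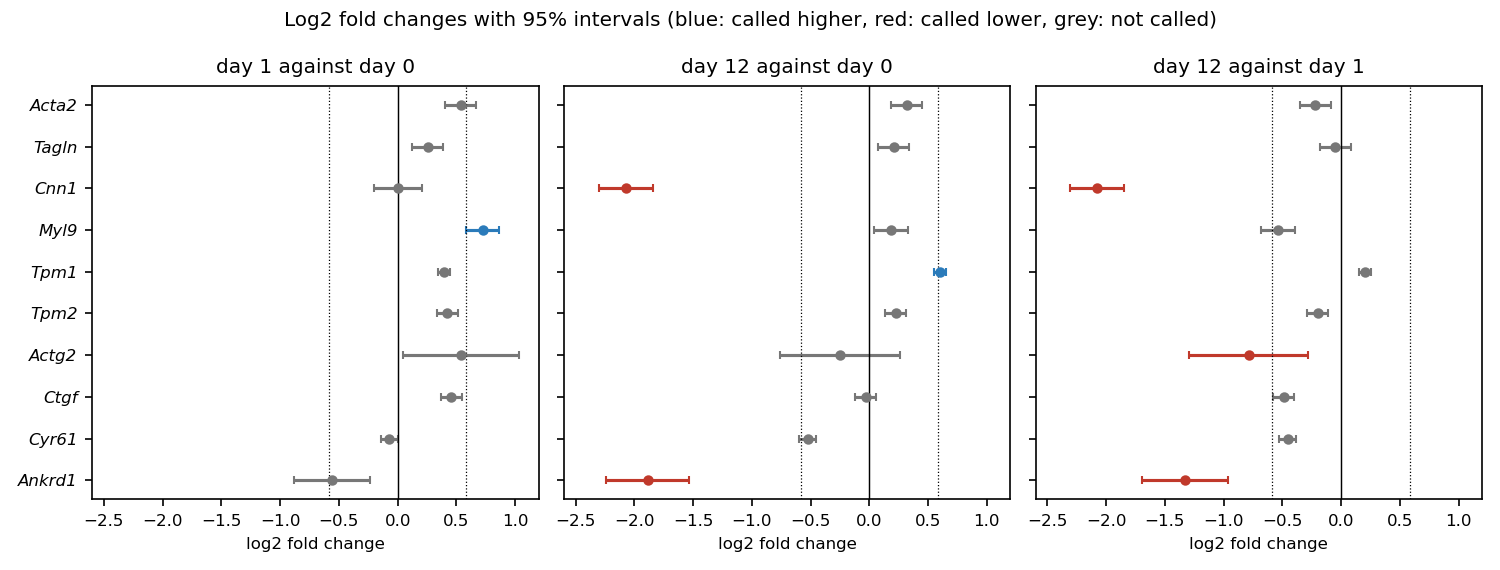
Log2 fold changes of the 10 genes in the 3 comparisons, with 95% intervals; blue is called higher, red called lower and grey not called, and the dotted lines are the fold limit of 0.585 in either direction. At day 1, 8 of the genes were above 0, and from day 1 to day 12, 9 were below 0, with Cnn1 at -2.07 and Ankrd1 at -1.89 the largest differences at day 12 against day 0.

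Among the contractile genes, 1 day at 31°C went with more Myl9, and 12 days with a 4.205-fold lower level of Cnn1, while Acta2, the most abundant of them, was moderately higher at both times. Cnn1 had the largest difference of the 10 genes. At day 0 it was at 11.7, 10.6, 11.0, 9.10 and 10.05 CPM in libraries 1 to 5. After 1 day at 31°C it was at 11.7, 11.05, 9.78, 9.47 and 10.65 CPM. After 12 days it was at 1.97, 3.12, 2.78, 2.89 and 1.86 CPM. The day 0 and day 1 libraries covered the same range, and every day 12 library was below all of them. Cnn1 was called lower at day 12, 4.205-fold below day 0 (log2 fold change -2.07, SE 0.11, edgeR adjusted p = 1.79e-14) and 4.218-fold below day 1 (-2.08, SE 0.111, adjusted p = 4.29e-14). At day 1 the log2 difference from day 0 was 0.0043, with a 95% interval from -0.197 to 0.206 and an adjusted p of 0.971, and its sign changed when single libraries were left out.

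Myl9, the light chain through which phosphorylation switches on smooth muscle and non-muscle myosin, was the member called higher at day 1. It was at 31.4, 32.3, 27.6, 28.5 and 30.1 CPM in the day 0 libraries. In the day 1 libraries it was at 56.5, 48.9, 42.3, 52.7 and 47.2 CPM. In the day 12 libraries it was at 29.97, 34.2, 36.4, 39.3 and 30.9 CPM. All day 1 libraries were above all day 0 and all day 12 libraries, while day 0 and day 12 overlapped. Myl9 rose 1.651-fold at day 1 (log2 fold change 0.72, SE 0.0696, adjusted p = 1.68e-09), with a 95% interval from 0.579 to 0.867 that reached just below the fold limit of 0.585. At day 12 it was 0.19 above day 0 on the log2 scale (SE 0.0702, adjusted p = 0.0197) and 0.54 below day 1 (adjusted p = 3e-07), both within the fold limit. Without replicate 3 of day 1 or replicate 4 of day 12, the difference from day 1 passed the limit, at -0.593 and -0.591.

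Acta2, whose protein marks myofibroblasts and smooth muscle, had day 0 levels of 308.2, 287.8, 289.9, 271.7 and 268.2 CPM. Its day 1 levels were 487.7, 419.6, 370.7, 417.7 and 374.3 CPM. Its day 12 levels were 333.3, 370.0, 370.8, 396.9 and 307.8 CPM. The day 1 libraries all lay above the day 0 libraries, and 4 of the 5 day 12 libraries did. The difference was 45.1% at day 1 (log2 0.54, SE 0.0642, adjusted p = 6.66e-08) and 24.7% at day 12 (log2 0.32, SE 0.0641, adjusted p = 9.15e-05), both short of the fold limit. Between day 12 and day 1 it was -0.22 on the log2 scale (adjusted p = 0.00432), and -0.002 with the libraries scaled by the reference genes Hprt, Tbp, Gapdh and Ppia.

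Tagln, a direct SRF target in smooth muscle, was at 100.5 to 114.4 CPM in the day 0 libraries, 106.9 to 149.6 CPM after 1 day at 31°C and 108.6 to 133.5 CPM after 12 days. The groups overlapped. Its log2 difference from day 0 was 0.26 at day 1 (SE 0.0648, adjusted p = 0.00117) and 0.21 at day 12 (SE 0.0648, adjusted p = 0.00584). Of its exon bases, 67.9% also lie in exons of Pcsk7 and Gm48529 on the opposite strand. The strand setting of the counting was not stated, so reads of these genes could not be told apart. Pcsk7, a proprotein convertase, was counted at 21.15 ± 1.05, 33.44 ± 0.978 and 29.39 ± 0.441 CPM at days 0, 1 and 12 (SD, n = 5).

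Actg2, the other smooth muscle actin, was close to 1 CPM and varied most among libraries. The day 0 libraries were at 1.51, 0.958, 1.04, 1.41 and 1.26 CPM. The day 1 libraries were at 2.37, 1.5, 2.00, 1.07 and 2.00 CPM. The day 12 libraries were at 0.792, 1.93, 0.692, 1.14 and 0.703 CPM. All 3 groups overlapped, and replicate 2 of day 12 lay above every day 0 library. Actg2 was 1.726-fold lower at day 12 than at day 1 (log2 -0.79, SE 0.246, adjusted p = 0.00693), a call lost with scaling by the reference genes (-0.564). Against day 0 it was 0.54 higher at day 1 (SE 0.239, adjusted p = 0.0479, just below the threshold of 0.05). That difference passed the fold limit in the larger library number series alone (0.6684) and without replicate 1 or 4 of day 0 or replicate 2 or 4 of day 1. With 1 library left out, Actg2 lay between 0.4206 and 0.6705 in that comparison. At day 12 it was at -0.25 against day 0 (SE 0.248, adjusted p = 0.366), and at -0.5851 and called lower without replicate 2 of day 12.

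The tropomyosins were both above day 0 after 1 day at 31°C, and Tpm1 alone went on to pass the fold limit after 12 days. Tpm1 was at 233.0, 242.2, 229.7, 228.1 and 238.2 CPM in the day 0 libraries. At day 1 it was at 305.6, 314.6, 296.4, 309.4 and 313.9 CPM. At day 12 it was at 345.3, 355.2, 355.7, 364.4 and 355.6 CPM. The 3 groups were fully separated, in the order of days at 31°C, and the coefficient of variation within a group was 1.90% to 2.52%. Tpm1 rose 1.516-fold at day 12 (log2 fold change 0.60, SE 0.0256, adjusted p = 2.36e-16). Its 95% interval from 0.548 to 0.654 spanned the fold limit, and with a stricter filter on low counts the value was 0.5818 and the call was lost. At day 1 the difference was 0.39 (SE 0.0256, adjusted p = 1.3e-12), and from day 1 to day 12 it was 0.21 (SE 0.0256, adjusted p = 1.54e-07). Tpm2 was at 44.97 to 54.11 CPM in the day 0 libraries, 59.92 to 69.83 CPM after 1 day and 55.99 to 59.4 CPM after 12 days. No day 1 or day 12 library of Tpm2 overlapped day 0, with differences of 0.42 (SE 0.0435, adjusted p = 5.28e-09) and 0.22 (SE 0.0436, adjusted p = 6.36e-05). From day 1 to day 12, Tpm2 differed by -0.20 (adjusted p = 0.00028), and by 0.018 with scaling by the reference genes.

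The 3 usual reporters of YAP did not move together. Ctgf, a secreted modulator of matrix and growth factor signalling, was at 952.6, 909.2, 938.4, 1048 and 1063 CPM at day 0. It was at 1256, 1290, 1426, 1355 and 1415 CPM at day 1. It was at 975, 970.6, 982.6, 885.5 and 990.1 CPM at day 12. All day 1 libraries were above all others, and day 0 and day 12 overlapped. The difference at day 1 was 37.3% (log2 0.46, SE 0.0432, adjusted p = 1.23e-09), short of the fold limit. At day 12 it was -0.03 (SE 0.0432, adjusted p = 0.51), and 0.1614 with scaling by total counts and 0.1875 with the reference genes. Of the exon bases of Ctgf, 23.2% also lie in exons of Gm15270 on the opposite strand.

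Cyr61, a relative of Ctgf that is often induced with it, had day 0 levels of 468.7, 433.9, 463.6, 413.5 and 471.1 CPM. The levels were 448.4, 437.5, 406.6, 428.8 and 418.5 CPM at day 1. They were 304.8, 314.3, 324.3, 316.4 and 303.5 CPM at day 12. Every day 12 library was below every other library, and day 0 and day 1 overlapped. At day 12 the level was 30.6% lower than at day 0 (log2 fold change -0.53, SE 0.0348, adjusted p = 1.16e-12) and 26.9% lower than at day 1 (-0.45, SE 0.0348, adjusted p = 3.84e-11), both within the fold limit. The difference at day 1 was -0.07 (SE 0.0347, adjusted p = 0.0629), with a 95% interval from -0.145 to -0.001.

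Ankrd1 was the YAP reporter called lower at day 12. It was at 3.36, 2.65, 2.67, 2.88 and 3.53 CPM at day 0, from 246 to 424 counts a library. The day 1 libraries had 2.22, 1.89, 2.196, 2.18 and 1.77 CPM. The day 12 libraries had 1.30, 0.618, 0.717, 0.542 and 0.827 CPM. The 3 groups were fully separated, in falling order with days at 31°C. Ankrd1 fell 3.697-fold from day 0 to day 12 (log2 fold change -1.89, SE 0.171, adjusted p = 4.43e-10) and 2.508-fold from day 1 to day 12 (-1.33, SE 0.176, adjusted p = 4.4e-07). The difference at day 1 was -0.56 (SE 0.157, adjusted p = 0.00279), and it passed the fold limit when replicate 2 or 3 of day 0 or replicate 1 of day 1 was left out.

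Ratios of counts within a library do not depend on how libraries are scaled, and 3 pairs of related genes, chosen after their levels were seen, are given in this way as a description, with no test. The ratio of Ctgf to Cyr61 had a median of 2.095 at day 0, with a range from 2.024 to 2.534. It was 3.160 at day 1 (2.801 to 3.508) and 3.088 at day 12 (2.799 to 3.262), so that each 31°C group was fully above day 0. The day 1 and day 12 groups overlapped (log2 difference -0.036). Since Ctgf was highest at day 1 and Cyr61 lowest at day 12, the same ratio stood at different levels of both genes. The ratio of Acta2 to Cnn1 had a median of 26.68 at day 0 (26.27 to 29.86), 37.96 at day 1 (35.16 to 44.10) and 137.1 at day 12 (118.8 to 168.8), with each pair of groups fully separated. The ratio of Tpm1 to Tpm2 was 4.733 at day 0 (4.447 to 5.072) and 4.676 at day 1 (4.430 to 4.946), which overlapped. It was 6.061 at day 12 (5.979 to 6.351), above every other library.

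**Figure D3:**
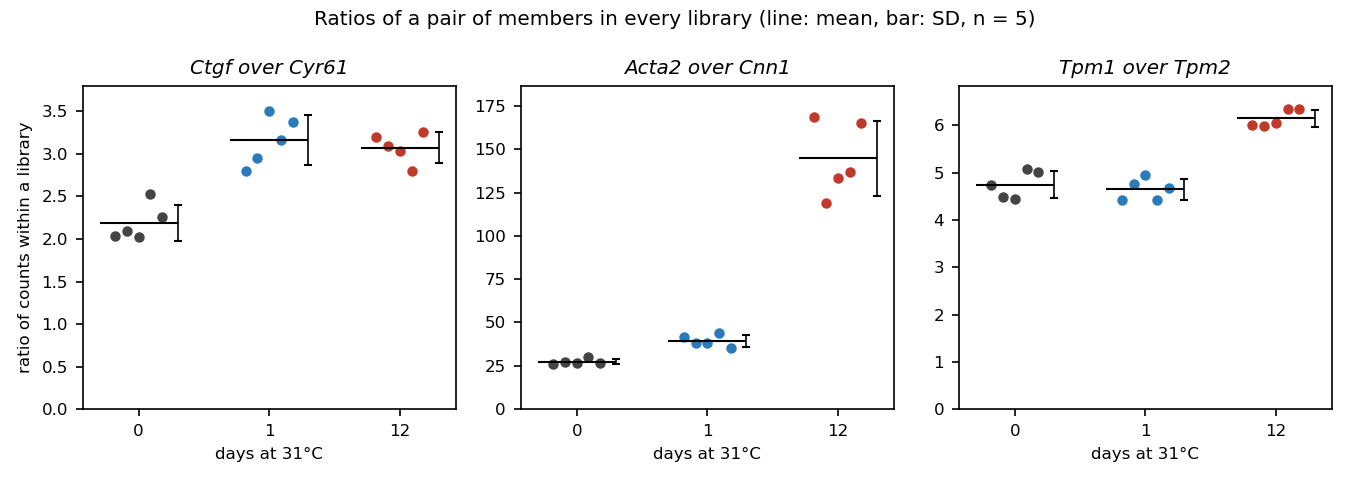
Ratio of the counts of 2 genes in every library, on linear axes from 0, against days at 31°C; points are libraries, the line is the mean and the bar the SD (n = 5). The ratio of Ctgf to Cyr61 was above day 0 in both 31°C groups, while those of Acta2 to Cnn1 and Tpm1 to Tpm2 were highest at day 12.

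Of 17 other contractile genes of smooth muscle, 15 were tested, with 3 called lower and 0 higher at day 1, against 13.4% lower and 7.71% higher over all tested genes. Against day 0 the day 12 group had 5 lower and 0 higher, against 16.2% and 13% over all tested genes, or 4 lower and 1 higher with scaling by total counts or reference genes. Against day 1 it had 3 lower and 1 higher, against 8.53% and 10.6%, or 2 and 1 with either of these scalings. Their median log2 fold change was -0.107 at day 1 and -0.355 at day 12. Synpo2, an actin-bundling protein of the Z-disc, was lower at both times, with log2 fold changes of -1.42 and -1.77 (adjusted p = 1.93e-08 and 4.46e-10). Mylk, the kinase that phosphorylates myosin light chains such as that of Myl9, went from 45.85 ± 1.93 CPM at day 0 to 23.40 ± 1.75 at day 1 (SD, n = 5, log2 fold change -0.97, adjusted p = 1.29e-15). Mylk was at 43.43 ± 1.17 CPM at day 12 (-0.08 against day 0, adjusted p = 0.0951), so the time at which it was low was the time at which Myl9 was high. At day 12, Itga8, an integrin of contractile cells, fell by 0.91 (adjusted p = 5.25e-13). Csrp2, a LIM protein of smooth muscle, fell by 0.77 (adjusted p = 5.61e-12), a call lost with scaling by total counts (-0.5745) or by the reference genes (-0.5487). Myh11 and Des, the smooth muscle myosin heavy chain and desmin, named here after their values were seen, were called lower at day 12 from about 1 CPM (-1.74 and -2.26, adjusted p = 1.24e-06 and 7.79e-08). The 2 relatives of Cnn1 did not follow it, with Cnn2 at 0.42 (adjusted p = 7.75e-11) and Cnn3 at 0.11 (adjusted p = 0.000449) against day 0 at day 12, neither past the fold limit. Of the exon bases of Cnn3, 17.7% also lie in another gene on the opposite strand.

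Markers of pericytes and smooth muscle cells were measured beside these genes. Of 8 such markers, 4 were called lower at day 1 (3 by DESeq2) and 6 at day 12, and 0 were called higher. Over all tested genes 13.4% were called lower and 7.71% higher at day 1, and 16.2% and 13% at day 12. With scaling by total counts or reference genes, 1 was called higher and 5 lower at day 12. Of all 14293 genes, 2982 were then called higher and 1668 lower, or 3181 and 1604. Rgs5 and Kcnj8, both called lower at each time, were under 1 CPM in every library. Their summed level was 543.0 to 586.3 CPM at day 0, 411.6 to 444.6 at day 1 and 357.7 to 396.3 at day 12, and Cspg4, Pdgfrb and Notch3 made up most of it. Pdgfrb was at 131.3 ± 5.67, 113.9 ± 2.3 and 184.4 ± 10.7 CPM at days 0, 1 and 12 (SD, n = 5). It fell with the sum at day 1 (log2 fold change -0.21, adjusted p = 1.77e-05) and went the other way at day 12 (0.49, adjusted p = 7.14e-12). Cspg4 and Notch3 were called lower at day 12 (-1.11 and -1.36). With scaling by total counts the sums were 523.4 to 555.4, 399 to 428.2 and 391.4 to 430.1 CPM, so that days 1 and 12 overlapped while Cnn1 differed between them. None of the 8 was at 0 in all libraries of a group, and Rgs5, a defining pericyte marker, was at 31 counts or fewer in any library. Myh11 and Des are on both this list and that of contractile genes. Of 7 striated muscle markers in the table, all were under 1 CPM in every library, and their summed level was at most 0.6744 CPM. The 5 mesothelial markers summed to between 2.063 and 2.253 CPM at day 0 and to between 23.43 and 38.3 CPM at day 12, nearly all of it Msln (mesothelin), while Wt1 had at most 1 count and Upk3b at most 6 counts in any library. The summed fibroblast markers were 5689 to 6696, 4991 to 5304 and 4298 to 4708 CPM at days 0, 1 and 12. By total counts the sums were 5406 to 6455, 4807 to 5107 and 4704 to 5099 CPM, so that days 1 and 12 overlapped. The 7 genes were split at day 12, with 3 above 0 and a median of -0.0922. Pdgfra was at 0.34 and Dpt at 0.57, while Ly6a and Postn were called lower (-1.42 and -0.73). That is 2 lower and 0 higher, against 16.2% and 13% of all tested genes. The adipocyte markers summed to 2391 to 2704, 3014 to 3222 and 2500 to 2720 CPM. By total counts their sums were 2265 to 2573, 2902 to 3104 and 2712 to 2946 CPM. These sums hide opposite changes. At day 12, 4 of the 7 were called lower and 1 higher, against 16.2% and 13% of all tested genes (2 and 1 by total counts). Adipoq was at -1.24, Cidec at -1.59, Lep at -0.69 and Pparg at -0.59, and Fabp4 at 0.97. The macrophage markers summed to 6.631 to 9.047, 9.817 to 12.96 and 5.055 to 5.992 CPM, and the endothelial markers to at most 1.469 CPM. The part of these cell types in the levels of the 10 genes was not tested.

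Of the broadly expressed cytoskeletal genes of the SRF and MRTF program, all 22 were tested, and both 31°C groups had 2 called higher and 0 lower. Over all tested genes 7.71% were called higher and 13.4% lower at day 1 and 13% and 16.2% at day 12. The medians of the list were 0.0888 and 0.332. From day 1 to day 12, edgeR and DESeq2 called 0 in either direction, with 13 higher and 4 lower at an unadjusted p below 0.05. Over all tested genes 10.6% were called higher and 8.53% lower in that comparison. These counts depended on the scaling. By total counts 7 were called higher against day 0 and 5 against day 1, and by the reference genes 10 and 6, with 0 lower in each case. The background rose too, with 2982 and 2248 of all 14293 genes called higher by total counts and 3181 and 2537 by the reference genes. Fhl1, a LIM protein of muscle and other mechanically loaded cells, rose by 0.69 at day 1 and by 1.13 at day 12 (adjusted p = 2.1e-12 and 8.85e-17). Zyx, zyxin of focal adhesions, rose at day 12 from 125.0 ± 6.49 to 251.3 ± 14.9 CPM (log2 fold change 1.01, adjusted p = 1.7e-17). Fhl2 rose by 0.60 at day 1 (adjusted p = 5.99e-12), a call lost with a minimum mean of 10 CPM (0.5534) and without replicate 3 of day 0 or replicate 2 or 5 of day 1. Actb, non-muscle beta-actin, was at 0.38 and 0.42 against day 0 (adjusted p = 2.49e-10 and 3.52e-11), within the fold limit.

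SRF itself and its partners were present throughout. Srf was at 33.12 ± 0.988, 35.56 ± 1.04 and 37.49 ± 0.77 CPM at days 0, 1 and 12 (SD, n = 5), a difference of 0.10 and 0.18 on the log2 scale (adjusted p = 0.00583 and 1.97e-05). Myocd, the co-activator that defines the smooth muscle program, was below the filter, with at most 2 counts in a library, so the co-activators measured were Mkl1 (MRTF-A) and Mkl2 (MRTF-B). Of the 6 tested genes of this list, edgeR and DESeq2 called 0 at day 1, with 4 higher at an unadjusted p below 0.05. Over all tested genes 7.71% were called higher and 13.4% lower. At day 12, 1 was called higher and 0 lower, against 13% and 16.2% of all tested genes. That gene was Elk3, an ETS factor that competes with MRTF for SRF, at 77.04 ± 2.74 CPM at day 0 and 119.3 ± 4.37 at day 12 (log2 fold change 0.63, adjusted p = 6.8e-15). Mkl1 was at 0.34 and 0.56 against day 0 (adjusted p = 2.67e-08 and 2.01e-12), and it passed the fold limit with scaling by total counts (0.7532) or the reference genes (0.7779). Mkl2 was at 0.11 and 0.14 (adjusted p = 0.0727 and 0.017). Elk1 was at 0.18 and 0.08 (adjusted p = 0.000168 and 0.0717), and Elk4 at 0.09 and 0.05 (adjusted p = 0.298 and 0.527).

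Of the YAP, TEAD and Hippo pathway genes, 17 of 18 were tested, of which edgeR and DESeq2 called 0 at day 1, with 6 higher and 7 lower at an unadjusted p below 0.05. Over all tested genes 7.71% were called higher and 13.4% lower at day 1. After 12 days, 3 were called higher and 1 lower, against 13% and 16.2% of all tested genes, or 4 and 0 with scaling by total counts or reference genes. The 3 called higher were TEAD factors, the DNA-binding partners of YAP. Tead2 went from 21.93 ± 1.49 to 48.50 ± 2.47 CPM (SD, n = 5, log2 fold change 1.14, adjusted p = 9.02e-17), Tead1 from 147.3 ± 3.46 to 232.8 ± 3.92 CPM (0.66, adjusted p = 3.03e-13) and Tead4 from 2.998 ± 0.365 to 4.822 ± 0.35 CPM (0.69, adjusted p = 4.53e-07). Tead3 was at 0.11 (adjusted p = 0.0128). The gene called lower was Vgll4, which competes with YAP for TEAD (-0.60, adjusted p = 1.98e-10), a call lost with scaling by total counts (-0.4102) or the reference genes (-0.3857) and without replicate 4 of day 0 (-0.5767). Yap1 was at -0.13 at both times (adjusted p = 9.29e-06 and 1.2e-05), with a day 12 value of 0.0642 by total counts and 0.0891 by the reference genes. Wwtr1, which encodes TAZ, was at 0.11 and 0.17 (adjusted p = 0.00105 and 1.39e-05).

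The other 19 YAP target genes were all tested. At day 1, 2 were called higher and 2 lower, against 7.71% and 13.4% of all tested genes, and their median was -0.118. At day 12, 4 were called higher and 6 lower, against 13% and 16.2% (5 and 3 genes with scaling by total counts or reference genes), with a median of -0.196. From day 1 to day 12 there were 5 higher and 6 lower, against 10.6% and 8.53%, or 5 and 3 with scaling by total counts and 5 and 2 with the reference genes. Tgfb2, a TGF-beta ligand, was high at day 1 alone, as Ctgf was, at 198.9 ± 9.15, 337.5 ± 10.0 and 202.0 ± 8.45 CPM at days 0, 1 and 12 (SD, n = 5, log2 fold change 0.76 at day 1, adjusted p = 8.63e-16). Fjx1, a secreted modifier of planar polarity, rose by 0.95 and 0.81 (adjusted p = 5.33e-06 and 4.36e-05). Igfbp3, an IGF-binding protein, fell by 1.02 and 1.79 (adjusted p = 6.31e-15 and 1.18e-19). At day 12, Myof, a membrane repair protein, rose by 0.99 (adjusted p = 1.24e-19) and Gadd45a, a stress-response gene with 19.1% of its exon bases in another gene, fell by 1.16 (adjusted p = 2.1e-19). F3, tissue factor, fell by 0.98 at day 12 (adjusted p = 4.92e-19). Rbms3, an RNA-binding protein, fell by 1.01 at day 1 (adjusted p = 1.72e-16) and was at -0.32 at day 12.

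**Figure D4:**
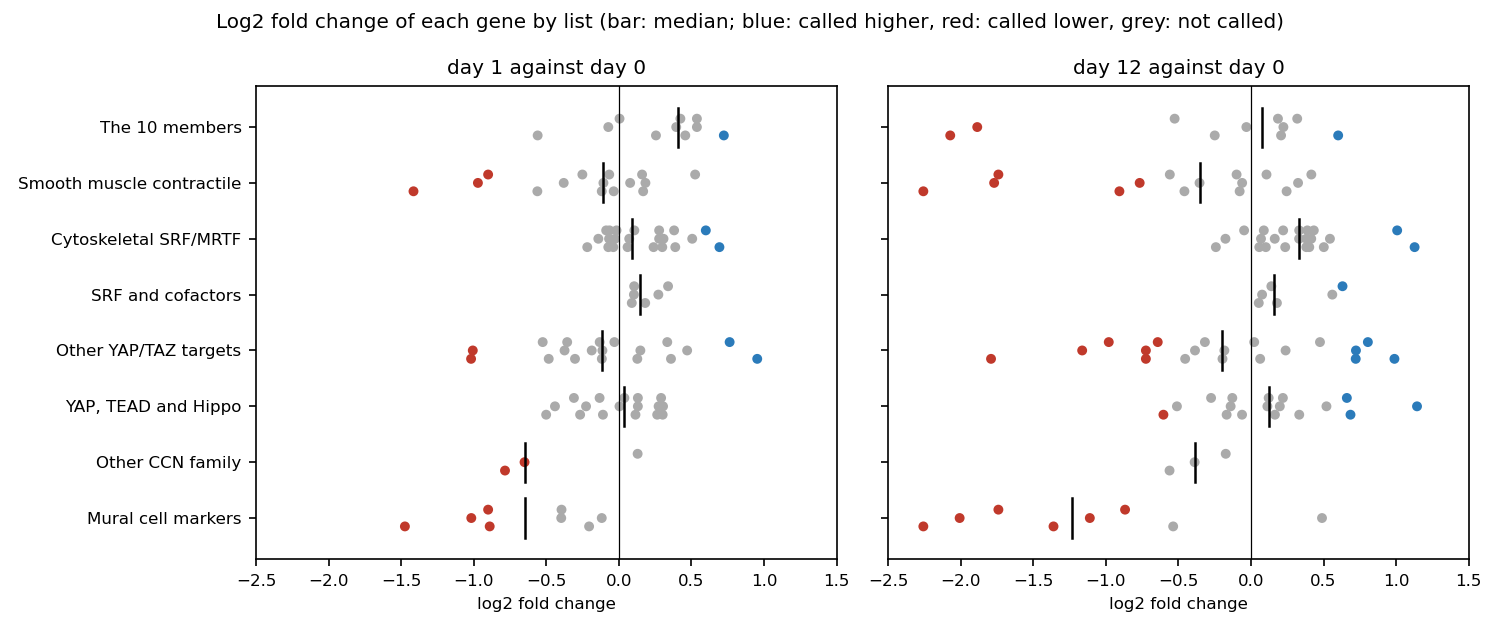
Log2 fold change of each tested gene by list, at day 1 and day 12 against day 0; each point is a gene, the bar is the list's median, and blue, red and grey mark genes called higher, called lower and not called. At day 12 the smooth muscle list has a median of -0.355 and the cytoskeletal list of 0.332, and the other YAP targets reach from -1.79 to 0.99.

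Of the other 4 CCN family genes, 3 were tested. At day 1, 0 were called higher and 2 lower, against 7.71% and 13.4% of all tested genes. The 2 were Wisp1 (log2 fold change -0.78, adjusted p = 5.99e-09) and Wisp2 (-0.65, adjusted p = 1.2e-15), while their relative Ctgf was 0.46 higher. Wisp2, which is known from adipose precursors, was at 837.5 ± 22.5, 533.6 ± 22.1 and 742.3 ± 15.9 CPM at days 0, 1 and 12 (SD, n = 5), low where Ctgf was high. At day 12, edgeR and DESeq2 called 0 of the 3 against day 0, each with an unadjusted p below 0.05, where 13% of all tested genes were called higher and 16.2% lower. Against day 1, 0 were called higher and 1 lower, against 10.6% and 8.53%. That gene was Nov (-0.69, adjusted p = 4.29e-07), a call lost with scaling by total counts (-0.5179) or the reference genes (-0.471). With these scalings the calls turned to 1 higher and 0 lower, and 2 higher and 0 lower.

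Genes that respond to TGF-beta, which also acts on contractile genes, included Tgfbi, a matrix protein called higher at day 1 (log2 fold change 0.81, adjusted p = 4.21e-13). At day 12, Smad7, the inhibitory SMAD (-1.14, adjusted p = 2.41e-14), and Ltbp2, a microfibril protein (-0.95, adjusted p = 6.68e-16), were called lower.

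Over the 15 libraries, the genes most like Acta2 and most like Ctgf were found by the root mean square difference of log2 CPM, with each gene centred on its own mean, among genes of at least 1 CPM. Nearest to Acta2 were Pcdhga1 (0.0902), Tgfb1i1 (0.0926), Tubgcp2 (0.0956), Prr3 (0.0986) and Tnfrsf23 (0.101). Tgfb1i1 encodes Hic-5, a focal adhesion protein of smooth muscle, and was at 0.41 and 0.29 on the log2 scale against day 0 at days 1 and 12. Of the exon bases of Pcdhga1, 47.1% lie in exons of other genes of its protocadherin cluster, and of those of Prr3, 10.2% lie in Gnl1. Among the 10 genes, Tpm2 (0.114) and Tagln (0.122) were nearest to Acta2. Nearest to Ctgf were Srpx2 (0.0544), Sephs2 (0.0632), Nudt18 (0.0666), Prdx3 (0.0677) and Tapt1 (0.0686), each 0.44 to 0.53 above day 0 at day 1 and within 0.05 of it at day 12. Sephs2 has 36.4% of its exon bases in another gene.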

How the data were processed

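Total RNA of 15 libraries was sequenced, 5 per group. The authors aligned reads to UCSC mm10 with TopHat2 2.0.13 and Bowtie2 2.2.1 and deposited raw read counts per gene made with HTSeq, whose options are not given in the sources used here. Their deposited log2 values and tables of fold change and p-value from DESeq2 were not used. Counts were tested in R 4.3.3 with edgeR 4.0.16 (TMM, filterByExpr with a minimum count of 10, quasi-likelihood test over all 15 libraries, Benjamini-Hochberg adjustment over 14293 genes) and called at adjusted p below 0.05 and fold over 1.5. The procedure was tested for day 12 against day 0 on counts simulated with the dispersions fitted to these data. It called 46 of 50 genes changed by 2-fold, and 21 of 50 at 1.5-fold. A 1.5-fold change lies on the fold limit itself, so the latter count does not measure sensitivity. Alternatives were other scalings (DESeq2 size factors, total counts, the reference genes Hprt, Tbp, Gapdh and Ppia, of which the study used several sets in its PCR assays), filters, DESeq2 1.42.0, only the 2 groups compared, the number series of the libraries (11 and 4 libraries) as covariate or the larger alone, the replicate number as a block, and leaving out each library. All 10 genes were named; of each list, up to 3 called genes each way with at least 1 CPM, all of SRF and its cofactors, Yap1, Wwtr1 and Tead1 to Tead4. Actb, Cnn2 and Cnn3 were named after their values were seen, as family members. The genes and lists were chosen with earlier results of these data known. Exon lengths, coordinates and overlaps are from GENCODE vM21 (GRCm38, the build of mm10). No 2 libraries agreed within sampling noise. Some listed genes are not reported here.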

Additional observations from a re-analysis of the deposited data

Results flagged for a closer look

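In 2 of the 30 groups of 5 libraries examined, 1 library stood apart from the other 4 by a Dixon ratio over 0.71, and chance gives about 1 in 20. Tagln in replicate 1 of day 0 was at 114.4 CPM, against 100.5 to 103.7 CPM in the others. Ctgf in replicate 4 of day 12 was at 885.5 CPM, against 970.6 to 990.1 CPM in the others.

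For 3 of the genes the effect of 12 days at 31°C differed from the effect of 1 day by edgeR's test of that difference with a fold over 1.5. Cnn1 differed by -2.08 on the log2 scale (0.0043 at day 1 and -2.07 at day 12, adjusted p = 4.29e-14). Ankrd1 differed by -1.33 (-0.56 and -1.89, adjusted p = 4.4e-07). Actg2 differed by -0.79 (0.54 and -0.25, adjusted p = 0.00693), a call lost with scaling by the reference genes.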

How the results depend on the processing

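Over the 26 alternatives, 15 of which left out 1 library, 729 of the 771 values for the 10 genes kept their direction and their side of the threshold. The number of the 10 genes called higher at day 1, 1 as reported, was 2 with the library number series as a covariate, 2 in the larger number series alone, 7 by adjusted p alone and 1 to 2 with 1 library left out; the number called lower, 0, was 1 by adjusted p alone and 0 to 1 with 1 library left out. At day 12 against day 0 the number called higher, 1, was 5 by adjusted p alone, and with a minimum mean of 10 CPM, which removes Cnn1, Actg2 and Ankrd1, there were 0 higher and 0 lower; 2 to 3 were called lower with 1 library left out. At day 12 against day 1 the number called higher, 0, was 1 by adjusted p alone, and the number called lower, 3, was 8 by adjusted p alone, 0 with the minimum of 10 CPM, and 3 to 4 with 1 library left out; with the reference genes it was 2. Signs changed for differences near 0. Scaling by total counts gave 0.1614 and by reference genes 0.1875 for Ctgf at day 12, and 0.0642 and 0.0891 for Yap1. Between day 12 and day 1, Tagln went to 0.1243 and 0.1689 in the same way and lay between -0.1027 and 0.026 with 1 library left out (0.026 without replicate 1 of day 1), and Tpm2 to 0.018 with the reference genes. Cnn1 at day 1 lay between -0.0421 and 0.0493 with 1 library left out, and was below 0 without replicate 4 or 5 of day 0 or replicate 1 or 2 of day 1 (-0.0421, -0.0106, -0.0362 and -0.0121). The cause of these changes was not tested, except that total counts and reference genes moved the median of all genes at day 12 to 0.205 and 0.23.

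Same-numbered libraries of different groups showed little common deviation (correlations from -0.0453 to 0.0768 over 15 pairs, 3 of them best with their own number). These values do not exclude pairing. With the replicate number as a block, 1 gene was called higher at day 1, 1 higher and 2 lower at day 12, and 3 lower from day 1 to day 12, as without it. Depth limits mainly Actg2 and Ankrd1, with as few as 57 and 38 counts in a library, and the 5 libraries per group limit every value.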
